A study of Mus musculus with 6 samples.

Results

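The Mx GTPases, viperin and the ISG15 system were followed in mouse macrophages challenged with the fungus Candida albicans. They comprise 9 genes of the 54532 in the deposited table, chosen by name for their place in the type I interferon response. They are Mx1 and Mx2, Rsad2 (viperin) and Cmpk2, and Isg15 with Usp18, Uba7, Ube2l6 and Herc6. These genes and the gene lists below were chosen with earlier results of these data known, so counts of them are descriptions only. All 9 were found by symbol, each once, and all passed the filter for testing.

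The study asked how loss of progranulin (PGRN, encoded by Grn) changes the macrophage response to C. albicans. RNA was sequenced from 3 WT libraries (replicates 1 to 3) and 3 PGRN KO libraries (replicates 4 to 6). All came from C57BL/6J mice and, per the labels, from macrophages recruited to the peritoneal cavity, plated at 2000000 cells per well and exposed to 1 fungal cell per macrophage for 6 h. The treatment label gives the fungal challenge for all 6 libraries, while the titles call the WT libraries control. Both groups were taken as challenged, since the study describes its WT and PGRN KO macrophages alike as stimulated with live fungus for 6 h. The values here cannot check this. If the WT cells had not been challenged, every difference below would hold the challenge as well as the genotype. No library labelled as unchallenged was analysed here, so a level cannot be divided into a resting and an induced portion. The study instead describes macrophages grown from bone marrow and another ratio of fungus to macrophages, and its methods give the WT and PGRN KO mice different sources. Mouse source and genotype therefore cannot be told apart. The labels call the second group progranulin knockout and name no allele. The labels do not say whether replicates were separate animals, so the p-values below speak only for these libraries, whose spread may be technical.

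Type I interferon is sensed by the receptor pair IFNAR1 and IFNAR2 and signals through JAK1 and TYK2 to transcription factors that bind the interferon-stimulated response element in the promoters of its target genes, and the genes followed here are well-known targets. Mx proteins are dynamin-like GTPases that block viral replication. C57BL/6J mice, like most laboratory strains, carry defective alleles of both Mx1 and Mx2, so their transcripts report on the response without giving functional protein. Viperin is a radical SAM enzyme that makes an antiviral analogue of CTP, and CMPK2 is a mitochondrial nucleoside monophosphate kinase encoded beside it. ISG15 is a ubiquitin-like protein that is both secreted and joined to other proteins. UBA7 activates it, UBE2L6 carries it, HERC6 is its main ligase in mice and USP18 removes it. USP18 also binds IFNAR2 and restrains signalling from the receptor.

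The loci were read on GRCm38. Mx1 (chr16:97447035-97462907, minus strand) and Mx2 (chr16:97535308-97560900, plus strand) lie 72400 bases apart. Rsad2 (chr12:26442746-26456452, minus strand) and Cmpk2 (chr12:26469204-26479837, plus strand) lie 12751 bases apart and are transcribed away from each other. The 5 genes of the ISG15 system are scattered. Isg15 lies at chr4:156199424-156200818 on the minus strand, Usp18 at chr6:121245906-121270917, Uba7 at chr9:107975505-107984060, Ube2l6 at chr2:84798828-84810335 and Herc6 at chr6:57581000-57664632, the last 4 on the plus strand. The table lists Mx2 as a polymorphic pseudogene and the other 8 as protein-coding.

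RefSeq promoter windows (GRCm38.p6, from 250 bases before to 50 bases after the start) were matched for 6 of the 9 genes. The stretches below are shown because they hold the letters that interferon-activated factors are known to bind, and capitals mark matches on either strand to GAAANNGAAA or the shorter AANNGAAA, which overlaps it. The Isg15 stretch is chr4:156200855-156200966, the Rsad2 stretch chr12:26456531-26456592 (both minus strand) and the Uba7 stretch chr9:107975520-107975566 (plus strand). The Cmpk2 stretch, chr12:26469155-26469214 (plus strand), holds no match and is shown for contrast.
Isg15: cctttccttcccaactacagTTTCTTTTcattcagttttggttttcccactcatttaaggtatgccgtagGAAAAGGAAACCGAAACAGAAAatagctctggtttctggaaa
Rsad2: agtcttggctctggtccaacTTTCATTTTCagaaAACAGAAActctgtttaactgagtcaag
Uba7: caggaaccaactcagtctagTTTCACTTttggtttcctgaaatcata
Cmpk2: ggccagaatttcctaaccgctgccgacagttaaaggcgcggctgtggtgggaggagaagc
GAAANNGAAA was found in 2 of the 6 windows, those of Isg15 and Rsad2, against 3.44% of all 32851 windows. In Isg15 it occurred 3 times in a single overlapping run, with first bases at -78, -72 and -66 from the start. In Rsad2 it occurred once, on the strand opposite to the gene, with its first base at -120. AANNGAAA, chosen after these sequences had been seen, was found in 3 of the 6 windows, with Uba7 added, against 23.9% of all windows. The gamma-activated sequence TTCNNNGAA was found in none of the 6, against 8.3% of all windows. A match to letters is no evidence of binding, and the windows of Cmpk2, Ube2l6 and Herc6 simply do not hold these letters.

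Grn was measured first as a check of the labels. It stood at 324, 337 and 325 FPKM (fragments per kilobase of gene model, scaled to library size) in WT and at 0.0166, 0 and 0.0167 FPKM in PGRN KO, where at most 1 fragment was counted per library. Libraries held 15996786 to 17551619 counted fragments. Every member had between 1022 and 77311 fragments in each library, so counting error was small beside the spread between libraries. PGRN KO replicate 6 stood apart from the other libraries. Its deviation from the all-library mean fell with gene length (Spearman rho -0.47 across the 8882 tested genes, against 0.15 to 0.24 in the other 5), a correlation across genes, which are not independent replicates. Calls that it decides are given with and without it.

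Transcripts of 8 of the 9 genes rose in PGRN KO, none fell, and Isg15 did not pass the test. Across the table, 24.2% of tested genes were called in either direction and 10.4% were called higher (limma on log2(FPKM + 1), 8882 genes whose FPKM averaged 1 or more, Benjamini-Hochberg adjusted p under 0.05, two-sided). The median log2 fold change of the 9 genes was 1.03, beside -0.03 over all tested genes. The same 8 genes did not overlap between groups, beside 21.2% of tested genes that were higher in PGRN KO without overlap. In these bulk libraries, more or fewer cells of a type cannot be told from more or less RNA per cell.

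**Figure D1:**
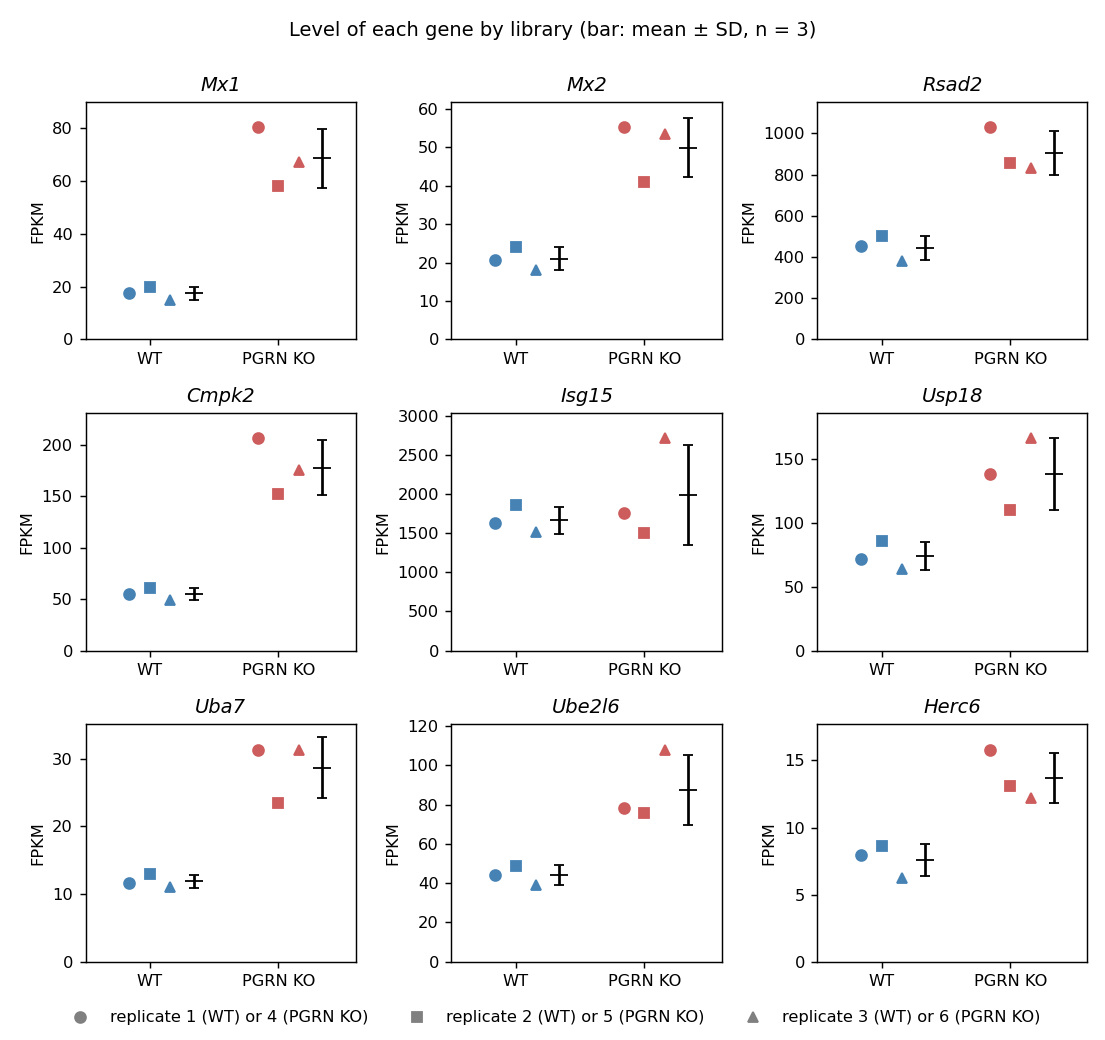
FPKM of each of the 9 genes (vertical axes, linear from 0) in the 3 WT (blue) and 3 PGRN KO (red) libraries, with marker shapes for replicates and black bars for the mean ± SD. Every PGRN KO point lies above every WT point except for Isg15, where PGRN KO replicate 5 is the lowest point and replicate 6 the highest.

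Mx1 showed the largest rise of the 9. Its level was 17.7, 19.7 and 15.0 FPKM in WT and 80.5, 58.4 and 67.3 FPKM in PGRN KO. The groups were far apart, with the lowest PGRN KO library well above the highest WT one. The means were 17.5 ± 2.39 and 68.7 ± 11.1 FPKM (SD, n = 3), a 3.93-fold difference. The log2 fold change was 1.91 ± 0.15 (SE, limma adjusted p = 0.00119). Mx1 thereby moved from the 75.8th to the 92.4th percentile of tested genes.

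Mx2, the other Mx gene, rose less. It stood at 20.8, 24.2 and 18.1 FPKM in WT and at 55.2, 41.1 and 53.4 FPKM in PGRN KO. The groups did not overlap, and replicate 5 was the lowest PGRN KO library for both Mx genes. The means were 21.0 ± 3.01 and 49.9 ± 7.68 FPKM (SD, n = 3), a 2.38-fold difference with a log2 fold change of 1.21 ± 0.15 (SE, limma adjusted p = 0.00343). The order of the pair changed with genotype, since Mx2 exceeded Mx1 in each WT library and Mx1 exceeded Mx2 in each PGRN KO library. The Mx1 to Mx2 ratio was 0.854, 0.817 and 0.825 in WT and 1.46, 1.42 and 1.26 in PGRN KO. The log2 ratio went from -0.27 ± 0.03 to 0.46 ± 0.11 (SD, n = 3), higher by 0.73 in PGRN KO with no overlap. The exact two-sided permutation test gave p = 0.1, the smallest value this test allows with 3 against 3 libraries, so it cannot pass the threshold whatever the size of the difference. Of the 31-base words in the Mx1 gene model, 8.67% also occur in another gene model, mostly Mx2, so a small share of reads could be assigned to either.

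Rsad2, which encodes viperin, was the second most abundant of the 9. Its level was 453, 499.8 and 381 FPKM in WT and 1029.7, 856 and 834 FPKM in PGRN KO. All 3 PGRN KO libraries were above all 3 WT libraries. The means were 445 ± 59.7 and 907 ± 107 FPKM (SD, n = 3), a 2.04-fold difference, and the log2 fold change was 1.03 ± 0.14 (SE, limma adjusted p = 0.0048). Rsad2 was already at the 98.8th percentile of tested genes in WT.

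Cmpk2, its neighbour, started lower and rose further. It stood at 54.9, 60.9 and 49.3 FPKM in WT and at 206, 152 and 175 FPKM in PGRN KO. Again no PGRN KO library reached down to the WT range. The means were 55.0 ± 5.82 and 178 ± 27.1 FPKM (SD, n = 3), a 3.23-fold difference with a log2 fold change of 1.67 ± 0.14 (SE, limma adjusted p = 0.00119). The Rsad2 to Cmpk2 ratio was 8.25, 8.21 and 7.74 in WT and 5.00, 5.64 and 4.75 in PGRN KO. Each library of PGRN KO thus held fewer Rsad2 transcripts per Cmpk2 transcript, and the log2 ratio differed by -0.66 (exact two-sided permutation p = 0.1, the smallest possible).

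Isg15, the modifier itself, was the most abundant of the 9 in both genotypes and the only one not called. Its level was 1626, 1857 and 1521 FPKM in WT and 1757, 1502 and 2714 FPKM in PGRN KO. The groups overlapped: 2 PGRN KO libraries lay within or below the WT range, and replicate 6 alone lay above it. The means were 1668 ± 172 and 1991 ± 639 FPKM (SD, n = 3). The log2 fold change was 0.21 ± 0.23 (SE, limma adjusted p = 0.516), with a 95% interval from -0.32 to 0.75. The interval holds both no change and rises of up to 0.75, so an equal level is not shown. Of the 31-base words in the Isg15 gene model, 13.1% also occur in another gene model.

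The high Isg15 value came from the library in which short genes stood high. Isg15 has the shortest gene model of the 9, 756 bases. Among tested genes of at most 942 bases, the median log2 level over the WT mean was 0.25 in replicate 6, beside -0.05 in replicate 4 and -0.08 in replicate 5. For Isg15 these values were 0.70, 0.08 and -0.15. After correction of each library for its trend with length they were 0.39, 0.08 and -0.10. Without replicate 6 the Isg15 log2 fold change was -0.03 (limma adjusted p = 0.837). In none of 20 alternative settings was Isg15 called, with adjusted p from 0.194 to 0.971.

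**Figure D2:**
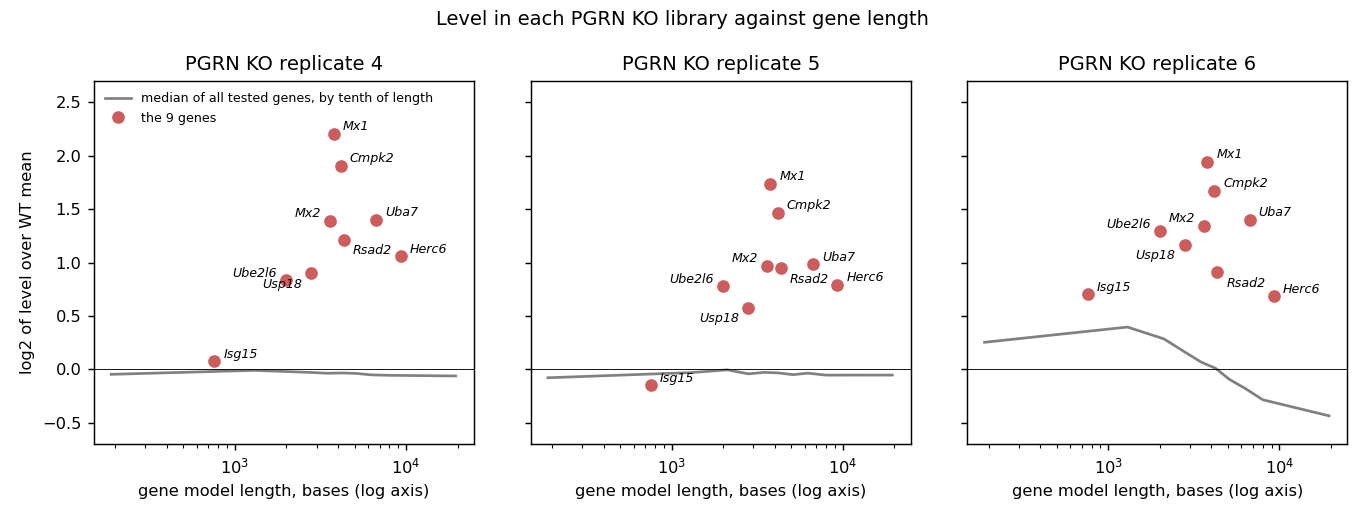
Log2 of each gene's FPKM over its WT mean (vertical axis) against gene model length in bases (log axis) in PGRN KO replicates 4, 5 and 6. Red points are the 9 genes and the gray line joins the medians of all tested genes in 10 length groups. The line is nearly flat in replicates 4 and 5. In replicate 6 it goes from 0.25 in the shortest group up to 0.40 in the next and then down to -0.44 in the longest.

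Usp18, the protease that takes ISG15 off its targets, rose in PGRN KO. It stood at 72.0, 85.9 and 64.2 FPKM in WT and at 138, 110 and 166 FPKM in PGRN KO. The groups did not overlap, with replicate 5 closest to WT. The means were 74.0 ± 11.0 and 138 ± 28.1 FPKM (SD, n = 3), a 1.87-fold difference, and the log2 fold change was 0.88 ± 0.18 (SE, limma adjusted p = 0.0144). Without replicate 6, the highest of the PGRN KO libraries here, the log2 fold change was 0.74 (limma adjusted p = 0.0102). The Usp18 call had the highest adjusted p of the 8. It was lost when WT replicate 1 was left out (adjusted p = 0.0643) or WT replicate 3 (adjusted p = 0.0596), with the log2 fold change still at 0.87 and 0.79.

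Uba7, the activating enzyme that starts ISG15 conjugation, stood at 11.7, 12.9 and 11.0 FPKM in WT and at 31.3, 23.4 and 31.3 FPKM in PGRN KO. WT libraries agreed closely, and the PGRN KO libraries were all well above them. The means were 11.8 ± 0.974 and 28.7 ± 4.56 FPKM (SD, n = 3), a 2.42-fold difference with a log2 fold change of 1.198 ± 0.13 (SE, limma adjusted p = 0.00243). Uba7 had the largest rise of the conjugation enzymes.

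Ube2l6, the conjugating enzyme, stood at 44.3, 49.0 and 39.1 FPKM in WT and at 78.6, 75.7 and 108 FPKM in PGRN KO. Replicate 6 was the high library here too, but the other 2 were also clear of the WT range. The means were 44.1 ± 4.96 and 87.4 ± 17.9 FPKM (SD, n = 3), a 1.98-fold difference, and the log2 fold change was 0.96 ± 0.16 (SE, limma adjusted p = 0.00818). Without replicate 6 it was 0.80 (limma adjusted p = 0.0021). Of its 31-base words, 15.5% also occur in another gene model.

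Herc6, the ligase, was the least abundant of the 9. It stood at 7.93, 8.59 and 6.24 FPKM in WT and at 15.8, 13.1 and 12.2 FPKM in PGRN KO. The groups did not overlap, and replicate 6 was the lowest PGRN KO library for this gene, whose model of 9292 bases is the longest of the 9. The means were 7.59 ± 1.21 and 13.7 ± 1.88 FPKM (SD, n = 3), a 1.81-fold difference, and the log2 fold change was 0.78 ± 0.14 (SE, limma adjusted p = 0.0109). The Herc6 locus overlaps Gm19244 on the other strand, which averaged 1.57 FPKM, and whether the counting used strand was not stated. Of its 31-base words, 13.8% also occur in another gene model, mainly Gm45193, which was at 0 FPKM in every library.

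Within the ISG15 system, Uba7 and Usp18 stood higher relative to Isg15 in every PGRN KO library than in any WT library. Per transcript of Uba7 there were 139, 144 and 139 Isg15 transcripts in WT, on the FPKM scale, but 56.1, 64.2 and 86.8 in PGRN KO. Per transcript of Usp18 there were 22.6, 21.6 and 23.7 in WT and 12.7, 13.6 and 16.3 in PGRN KO. Neither pair of groups overlapped, and replicate 6 was the PGRN KO library closest to WT in both. The log2 ratio of Uba7 to Isg15 went from -7.14 ± 0.03 to -6.08 ± 0.32 (SD, n = 3), and that of Usp18 to Isg15 from -4.50 ± 0.07 to -3.82 ± 0.19 (SD, n = 3). Each gave an exact two-sided permutation p of 0.1, the smallest possible, as did all 4 ratios tested (adjusted p = 0.1 over the 4). Without replicate 6 the Uba7 to Isg15 log2 ratio differed by 1.23, beside 1.05 with it, and the Usp18 to Isg15 log2 ratio by 0.78, beside 0.68. A ratio within a library does not depend on how libraries were scaled.

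**Figure D3:**
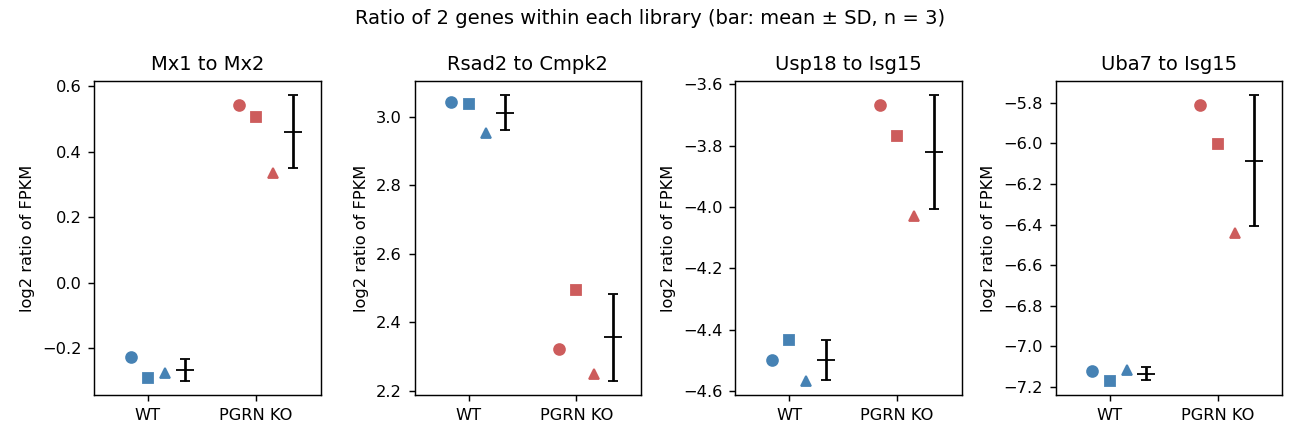
Log2 ratio of FPKM of 2 genes within each library (vertical axes, differing ranges) for Mx1 to Mx2, Rsad2 to Cmpk2, Usp18 to Isg15 and Uba7 to Isg15, in WT (blue) and PGRN KO (red), with bars for the mean ± SD. The groups do not overlap in any panel, and only the Rsad2 to Cmpk2 ratio is lower in PGRN KO.

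Ranked by FPKM in WT, the 9 genes ran from Isg15 through Rsad2, Usp18, Cmpk2, Ube2l6, Mx2, Mx1 and Uba7 to Herc6. Mx2 and Mx1 were the only neighbours in that order whose WT libraries overlapped. In PGRN KO the order was Isg15, Rsad2, Cmpk2, Usp18, Ube2l6, Mx1, Mx2, Uba7 and Herc6, and the libraries of Cmpk2 and Usp18 overlapped, as did those of Ube2l6 and Mx1. Cmpk2 and Mx1 had moved up by 1 place each.

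The genes also varied together among libraries of 1 genotype. WT replicate 2 was the highest and WT replicate 3 the lowest WT library for all 9, an order held by 26.4% of tested genes. With libraries scaled by their summed fragments the order was the same for all 9 and was held by 9.7% of tested genes. In PGRN KO, replicate 4 was the highest library for 6 genes (Mx1, Mx2, Rsad2, Cmpk2, Uba7 and Herc6), and replicate 6 for the 3 with the shortest models (Isg15, Ube2l6 and Usp18). Over all 6 libraries the 36 pairs of members had Pearson r from 0.30 to 1.00 with a median of 0.96. Pairs with Isg15 had r from 0.30 to 0.70 and pairs without it at least 0.86. These 6 points fall into the 2 genotypes and share the libraries' scaling, so the values are descriptions only.

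**Figure D4:**
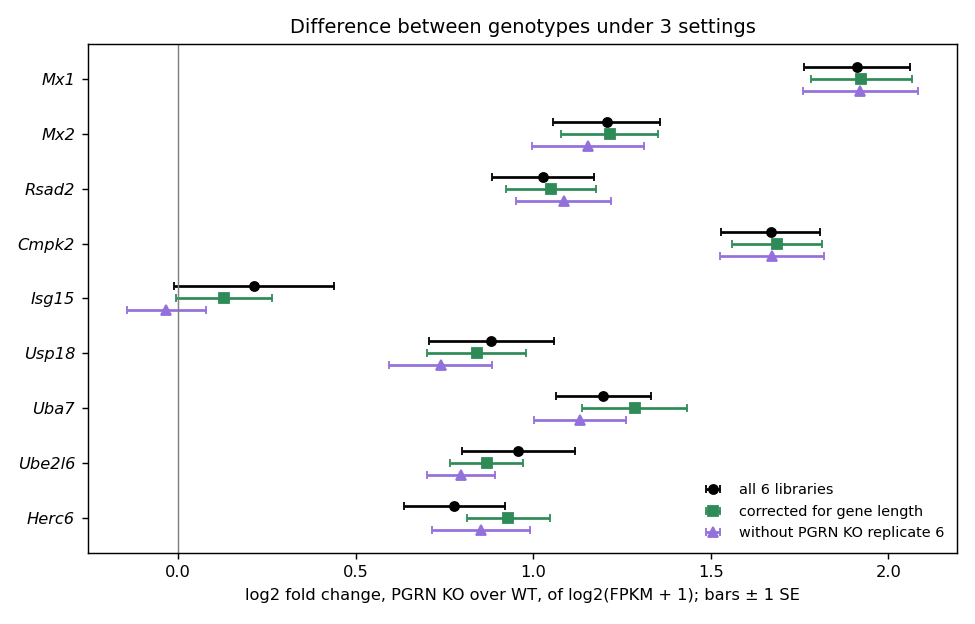
Log2 fold change of PGRN KO over WT on the log2(FPKM + 1) scale (horizontal axis, bars ± 1 SE) for each of the 9 genes with all 6 libraries (black), after correction for gene length (green) and without PGRN KO replicate 6 (purple). Mx1 stays near 1.9 and Cmpk2 near 1.7 in all 3 settings, while Isg15 goes from 0.21 to 0.13 and -0.03.

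Of 30 other interferon-stimulated genes, 29 were tested, 15 rose and none fell, with a median log2 fold change of 0.62. The 3 largest rises were those of Ifi44, Ifit3 and Ifit3b. Ifi44 went from 1.87 ± 0.11 to 7.97 ± 1.62 FPKM and Ifit3 from 76.1 ± 11.9 to 241 ± 69.2 FPKM (SD, n = 3; log2 fold changes 1.63 and 1.62, limma adjusted p = 0.00119 and 0.00452). Ifit3b went from 4.64 ± 1.07 to 15.0 ± 3.27 FPKM (log2 fold change 1.51, adjusted p = 0.00367). The count fell to 6 without WT replicate 1 and to 8 without WT replicate 3, and reached 21 higher and 2 lower without PGRN KO replicate 6. Calls over all tested genes moved likewise, from 2151 to 713, 883 and 3668 in these settings.

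Genes that make, sense or relay type I interferon moved in both directions. Irf5, a transcription factor that drives cytokine genes, rose from 35.5 to 62.3 FPKM (adjusted p = 0.00925). The receptor-associated kinases parted, with Tyk2 up from 2.50 to 4.41 FPKM (adjusted p = 0.00866) and Jak1 down from 63.0 to 40.9 FPKM (adjusted p = 0.0146). Stat2 also rose (adjusted p = 0.0157) and Irf8 fell (adjusted p = 0.0292). Ifnb1, which encodes interferon beta, was at 5.41 ± 1.67 and 7.25 ± 1.77 FPKM (SD, n = 3), and its libraries overlapped between groups (adjusted p = 0.274). Jak1, Stat2, Irf8 and Ifnb1 were named after their values had been seen. The falls of Jak1 and Irf8 were near the threshold. The Jak1 call was lost on the TPM scale (adjusted p = 0.0626), the Irf8 call after correction for gene length (adjusted p = 0.0586), and both when any WT replicate was left out (adjusted p from 0.0514 to 0.102), as was that of Stat2 (adjusted p from 0.0553 to 0.0725). Irf5 lost its call without WT replicate 1 (adjusted p = 0.0506).

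The relatives of the 9 genes were also counted. Of 87 tested ubiquitin-like modifiers, activating enzymes, conjugating enzymes, ligases, ubiquitin-specific proteases and dynamin family GTPases, 3 rose and 17 fell. Beside them, 921 of all 8882 tested genes rose and 1230 fell, with 24.2% called in either direction. Calls over all tested genes, 2151 with all libraries, became 713 to 883 without a WT replicate and 3668 without PGRN KO replicate 6. The counts of the 87 relatives also moved widely. With PGRN KO replicate 6 left out, 11 rose and 33 fell, and with replicate 4 left out 1 rose and 10 fell. With any of WT replicates 1, 2 or 3 left out, 1 rose and 4 fell. On the TPM scale 3 rose and 7 fell, and with summed fragments as library size 5 rose and 5 fell. None of the 8 other activating enzymes was called by limma. Of the 25 other conjugating enzymes 1 rose, Ube2d1 (0.886 to 1.90 FPKM), and 6 fell, among them Ube2g2 (19.4 to 12.0 FPKM, limma adjusted p = 0.00506). Of the 28 other ubiquitin-specific proteases 2 rose and 7 fell, led by Usp36 (2.998 to 1.43 FPKM, adjusted p = 0.00267). Of the 14 other modifiers none rose and 2 autophagy modifiers fell, Atg12 from 88.3 to 49.6 FPKM (adjusted p = 0.00202) and Map1lc3b from 19.3 to 12.9 FPKM (adjusted p = 0.0328). The Map1lc3b call was lost with summed fragments as library size, after length correction, and without any 1 replicate other than PGRN KO replicate 6 (adjusted p from 0.0517 to 0.114). On the TPM scale 2 conjugating enzymes rose and 2 fell, 1 protease rose and 1 fell, and 3 modifiers fell.

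Of 5 tested HERC relatives and ligases reported to act on ISG15, none rose and 1 fell. Trim25 stood at 160 ± 5.65 and 163 ± 20.7 FPKM (SD, n = 3; limma adjusted p = 0.907), while Arih1 fell from 22.1 to 15.3 FPKM (adjusted p = 0.0235), a call lost under all 3 other scalings and without any of WT replicates 1, 2 or 3 (adjusted p from 0.0513 to 0.115). Trim25 was named after its values had been seen. Of the 7 other dynamin family GTPases, none rose and Atl2 fell from 4.01 to 2.34 FPKM (adjusted p = 0.00743). After correction for gene length 2 of these 7 rose, and without PGRN KO replicate 6 3 rose, with 1 lower in both settings. Of all 8882 tested genes, 1303 rose and 1518 fell after length correction, and 1438 rose and 2230 fell without that replicate.

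Pyrimidine nucleotide enzymes, the wider group to which Cmpk2 belongs, included 8 tested genes, of which 2 rose and none fell. Samhd1, a phosphohydrolase that depletes deoxynucleotides and restricts viruses, rose from 15.5 ± 1.21 to 38.0 ± 5.88 FPKM (SD, n = 3; log2 fold change 1.23 ± 0.13 SE, limma adjusted p = 0.00216). Dck, the kinase that salvages deoxycytidine, rose from 5.82 to 9.20 FPKM (adjusted p = 0.038), a call lost when any replicate other than PGRN KO replicate 6 was left out (adjusted p from 0.0638 to 0.112). Without PGRN KO replicate 6, 2 of the 8 rose and 2 fell, beside 1438 that rose and 2230 that fell of all 8882 tested genes. Of 4 other radical SAM enzymes only Elp3, a tRNA-modifying enzyme, was called, from 1.23 to 2.26 FPKM (adjusted p = 0.0117), and it was not called without WT replicate 2 or 3 (adjusted p = 0.0544 and 0.0537).

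**Figure D5:**
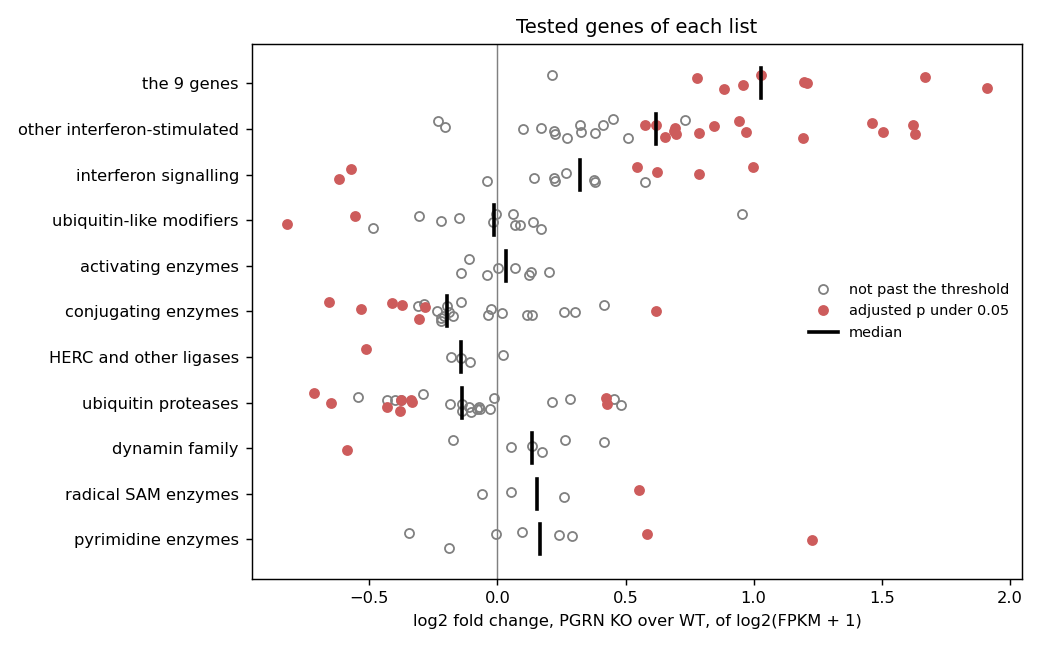
Log2 fold change of PGRN KO over WT (horizontal axis) of every tested gene in each list (rows), with filled red points for an adjusted p under 0.05, open gray points for the rest and a black line at each median. The medians are 1.03 for the 9 genes and 0.62 for the other interferon-stimulated genes, and run from -0.20 to 0.17 for the families outside the interferon response.

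The genes whose pattern was most like that of the 9, by mean Pearson r with them over the 6 libraries on log2(FPKM + 1), were Nt5c3, Arl6ip1, Gm12250, Phf11b and Rasa4. Their mean r was 0.93 each. They were picked for this likeness over libraries that split by genotype, so a difference between genotypes comes with the choice and their levels are given as a description. Phf11b went from 60.4 ± 7.23 to 149.5 ± 26.6 FPKM and Nt5c3, a pyrimidine nucleotidase, from 13.0 ± 2.17 to 29.8 ± 5.31 FPKM (SD, n = 3).

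Markers of other cells were checked because several of them can make or answer interferon. All 7 macrophage markers were above the filter, and they summed to 7091 to 7423 FPKM in WT and 7235 to 9725 FPKM in PGRN KO. Most of this was Lyz2 (5657 to 8135 FPKM) and Cd68 (1103 to 1344 FPKM). Csf1r fell (limma adjusted p = 0.0178) and Mertk, at 1.14 to 1.56 FPKM in WT, rose (adjusted p = 0.0064). Among the large peritoneal macrophage markers Prg4 (10.4 to 16.2 FPKM) and Gata6 (3.78 to 5.07 FPKM) were present and overlapped between groups. Icam2 rose from 2.94 to 3.265 FPKM in WT to 4.49 to 5.43 FPKM in PGRN KO (limma adjusted p = 0.00914). Timd4 was at most 0.204 FPKM and Selp at most 0.12 FPKM. Of the 4 plasmacytoid dendritic cell markers 2 were above the filter, Tcf4 and Ly6d. Their list summed to 2.37 to 2.54 FPKM in WT and 4.32 to 5.69 FPKM in PGRN KO, with Siglech at 0 in 5 of 6 libraries. The 5 B cell markers summed to 1.501 to 2.50 FPKM in WT and 6.62 to 8.92 FPKM in PGRN KO. The 5 mast cell markers summed to 2.23 to 3.19 FPKM in WT and 9.31 to 13.9 FPKM in PGRN KO.

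The 7 neutrophil markers summed to 48.8 to 53.2 FPKM in WT and 21.4 to 26.3 FPKM in PGRN KO. Nearly all of this was S100a8, and Ly6g and Elane were at 0 throughout. T cell markers summed to 2.15 to 3.14 and 2.75 to 4.81 FPKM, and NK cell markers to 0.389 to 0.409 and 0.672 to 1.05 FPKM, in WT and PGRN KO respectively. Conventional dendritic cell markers summed to 1.84 to 2.27 FPKM in WT and 1.1 to 1.44 FPKM in PGRN KO, with Cd209a at 0. The sums of the B cell, mast cell, NK cell and plasmacytoid dendritic cell lists were thus higher in PGRN KO without overlap, as the 8 called genes were. Single markers did not all follow: Ccr9 and Kit averaged lower in PGRN KO, and Gzma made up most of the NK cell sum while Ncr1 and Klrb1c overlapped between groups. The part of these cells in the differences was not tested.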

How the data were processed

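Libraries of challenged cells were poly(A)-selected, per the study's methods. Per the labels, the authors' processing notes name CASAVA, HISAT2 2.0.5, featureCounts 1.5.0-p3 and DESeq2 1.20.0 on mm10/GRCm38. The study's methods name another counter, and neither states strand use. The authors deposited FPKM per gene and library. FPKM multiplied by gene length gave whole steps for 100.0% of values in each library (tolerance 0.001 of a step), from which fragments were recovered. Genes averaging 1 FPKM or more (8882 of 54532) were tested as log2(FPKM + 1) with limma 3.58.1 in R 4.3.3 (trended eBayes, no covariates, Benjamini-Hochberg adjustment over all tested genes). Fold changes on this scale understate those of low genes. The 4 ratios were tested by exact permutation over 6 libraries. The limma fit was also run on simulated fragments with a single spread setting for all genes and no trend with length. Such data cannot test how the fit handles PGRN KO replicate 6. Shared sequence was counted as 31-base words in GENCODE vM21 gene models.

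The 9 members and all lists were chosen with earlier results of these data known. All members were named whatever they showed. From each list at most the 3 called genes of largest change without overlap were named, with the 5 genes of most similar pattern and called neighbours. Alternatives were pseudocount, filter, scaling, voom on fragments, variance model, sample weights, length correction, protein-coding genes only, a fold threshold and leaving out each replicate. A gene of the interferon signalling list is not reported here.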

Additional observations from a re-analysis of the deposited data

How the results depend on the processing

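Over 20 alternatives Mx1, Rsad2, Cmpk2 and Uba7 stayed called and higher in each, as did Mx2 in the 19 that tested it (the protein-coding filter drops it). Log2 fold changes ran from 1.79 to 2.02 for Mx1, 1.11 to 1.34 for Mx2, 0.92 to 1.13 for Rsad2, 1.56 to 1.78 for Cmpk2 and 1.13 to 1.33 for Uba7. Ube2l6 and Herc6 lost their call only when a change of at least 1 on the log2 scale was required, which left 5 of the 9 genes, 5 of the listed interferon-stimulated genes and 233 of all tested genes. Usp18 was not called there or without WT replicate 1 or 3. Leaving out 1 replicate at a time gave 7 to 8 called members. The Isg15 log2 fold change then ran from -0.0327 (without PGRN KO replicate 6) to 0.394, and was -0.0051 with length correction and without that replicate. All 4 ratios kept their direction and stayed within 1 SD of their values.

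The count over all genes was 2151, and became 1366 with no filter, 4225 with sample weights and 3659 with length correction and without PGRN KO replicate 6. It ran from 713 to 3668 with 1 replicate left out: 713 without WT replicate 1, 855 without WT replicate 2, 883 without WT replicate 3, then 1390 and 3668 without PGRN KO replicates 4 and 6. Voom on fragments called 2267. The listed interferon-stimulated genes, 15 at first and all higher, became 25 with weights (23 higher and 2 lower). They became 24 with length correction and without replicate 6 (22 higher and 2 lower). With 1 replicate left out they ran from 6 to 23, the last being 21 higher and 2 lower without PGRN KO replicate 6. The share of calls that were higher was 42.8%, but 60.3% on the TPM scale and 63.0% with summed fragments as library size. All called members were higher in each. No paired analysis was possible because WT libraries carry the numbers 1 to 3 and PGRN KO libraries 4 to 6.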

Other observations

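Of the 14 distinct nearest tested protein-coding neighbours, 2 rose, 1 fell and 11 did not pass the test (limma), with a median log2 fold change of 0.07. The called share, 21.4%, was close to the 24.2% of all tested genes. AW011738, 2485 bases from Isg15, rose from 13.1 ± 0.77 to 22.9 ± 0.87 FPKM (SD, n = 3; log2 fold change 0.77, adjusted p = 0.00238). Ppm1k, a mitochondrial phosphatase gene 45531 bases from Herc6, rose from 1.68 ± 0.10 to 4.58 ± 0.88 FPKM (log2 fold change 1.05, adjusted p = 0.00309). Id2, which encodes an inhibitor of DNA binding and lies 1345605 bases from Rsad2, fell from 399 ± 28.9 to 260.1 ± 3.44 FPKM (log2 fold change -0.61, adjusted p = 0.00674).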
